A study of Mus musculus with 2 samples.

Results

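The 4 genes Gria1, Gria2, Gria3 and Gria4 encode the subunits of the AMPA receptor, and they were taken as every row of the deposited transcript tables assigned to one of these gene names, 4 of 18510 annotated genes with a read. The study sequenced RNA as long reads from the cerebral cortex of the left side, taken from female B6CASTF1/J mice at 14 days of age, offspring of C57BL/6J and CAST/EiJ parents. The series holds 1 group of 2 libraries, labelled biological replicates 1 and 2 and each made from 2 µg of RNA, with no treatment and no second genotype, age or tissue. The labels do not settle whether a library comes from 1 animal or from several pooled females. Replicate 1 held 1072344 mouse reads and replicate 2 held 753520. The 4 genes together took 586 reads on 110 transcript models in replicate 1 and 428 reads on 89 models in replicate 2, and 72 and 50 of those models rested on a single read.

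AMPA receptors are tetramers of these subunits and carry most of the fast excitatory current at glutamatergic synapses of the cortex. Every subunit gene has a pair of neighbouring exons of 115 bases, flip and flop, of which a mature transcript normally keeps only one. They encode alternative versions of a stretch of the extracellular ligand-binding domain next to the last membrane-spanning segment, and they set how fast the receptor desensitises and how it answers to modulators; in the rat brain flip forms prevail early and flop forms gain after birth.

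In GENCODE M21 on mm10, Gria1 (ENSMUSG00000020524.16) spans chr11:57011387-57330244 and Gria3 (ENSMUSG00000001986.16) chrX:41400854-41678601, both on the plus strand. Gria2 (ENSMUSG00000033981.14) spans chr3:80681450-80802835 and Gria4 (ENSMUSG00000025892.16) chr9:4417896-4796234, both on the minus strand. The exon pairs are shown first because each read was assigned to flip or flop by these coordinates. In the GENCODE M21 annotation of mm10, flop came before flip in the direction of transcription in all 4 genes. The Gria1 pair lay on the plus strand at chr11:57310608-57310722 for flip and chr11:57309769-57309883 for flop, 724 bases apart. The Gria2 pair lay on the minus strand at chr3:80690404-80690518 for flip and chr3:80691320-80691434 for flop, 801 bases apart. The Gria3 pair lay on the plus strand at chrX:41669501-41669615 for flip and chrX:41654810-41654924 for flop, 14576 bases apart. The Gria4 pair lay on the minus strand at chr9:4427030-4427144 for flip and chr9:4432773-4432887 for flop, 5628 bases apart. The sequences below were read from the GENCODE M21 transcripts, 5′ to 3′, and capitals mark the bases at which flip and flop of the same gene differ.
Gria1 flip: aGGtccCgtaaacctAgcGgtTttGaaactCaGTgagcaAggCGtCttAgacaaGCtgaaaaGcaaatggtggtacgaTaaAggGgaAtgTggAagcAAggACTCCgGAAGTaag
Gria1 flop: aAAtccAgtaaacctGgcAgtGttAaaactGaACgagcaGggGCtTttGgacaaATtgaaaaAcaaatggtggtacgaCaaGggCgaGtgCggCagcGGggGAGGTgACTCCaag
Gria2 flip: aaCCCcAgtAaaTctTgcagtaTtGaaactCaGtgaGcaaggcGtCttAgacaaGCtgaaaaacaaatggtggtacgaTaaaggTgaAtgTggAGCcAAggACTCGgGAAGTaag
Gria2 flop: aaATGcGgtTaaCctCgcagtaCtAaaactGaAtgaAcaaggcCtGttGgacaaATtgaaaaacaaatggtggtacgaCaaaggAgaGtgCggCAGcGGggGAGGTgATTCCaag
Gria3 flip: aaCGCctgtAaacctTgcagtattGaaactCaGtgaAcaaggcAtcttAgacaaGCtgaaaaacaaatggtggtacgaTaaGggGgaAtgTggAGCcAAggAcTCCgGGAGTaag
Gria3 flop: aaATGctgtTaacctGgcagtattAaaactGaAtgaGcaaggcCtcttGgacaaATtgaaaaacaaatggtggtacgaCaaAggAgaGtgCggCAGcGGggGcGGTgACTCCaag
Gria4 flip: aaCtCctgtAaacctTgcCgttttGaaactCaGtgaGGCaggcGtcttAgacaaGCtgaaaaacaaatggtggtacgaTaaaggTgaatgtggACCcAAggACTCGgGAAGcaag
Gria4 flop: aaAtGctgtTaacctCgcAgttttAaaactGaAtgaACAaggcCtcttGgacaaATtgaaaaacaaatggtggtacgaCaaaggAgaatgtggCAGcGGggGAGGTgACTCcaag
Flip and flop differed at 36 bases in Gria1, 36 in Gria2, 32 in Gria3 and 31 in Gria4. At 22 of the 115 positions flip and flop differed in all 4 genes and 69 positions were the same in all 8 exons. The longest run shared by all 8 exons covered 15 bases, positions 64 to 78 counted from the 5′ end. Across genes the exons of 1 kind were closer to each other than to their own partner: the 6 pairs of flip exons were 87.8 to 92.2% identical and the 6 pairs of flop exons 87.8 to 94.8%, whereas flip and flop of the same gene were 68.7% identical in Gria1 and Gria2, 72.2% in Gria3 and 73.0% in Gria4.

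All 4 subunit genes were expressed, and Gria2 alone took about as many reads as the other members together. Levels are given as RPM, reads per 1000000 mouse reads of the library. RPM were not divided by length, because each long read was counted once whatever its length. Whether transcripts of different lengths were read equally well was not tested. Each read added 0.933 RPM in the first library and 1.33 RPM in the second, and a gene without any read could still stand as high as 2.80 RPM in replicate 1 or 3.98 RPM in replicate 2 (a limit of 3 reads). In whole tissue, fewer cells that express a gene and less RNA of it per cell cannot be told apart.

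Gria2 encodes the subunit that, once its transcript is edited, keeps calcium out of the receptor. It was covered by 307 reads in replicate 1 and by 225 in replicate 2, which are 286 and 299 RPM (292 ± 8.70, SD, n = 2), and it made up 52.4% and 52.6% of the reads of the 4 genes. Its mean level stood at percentile 97.2 of all genes with a read, whose median was 10.8 RPM. Gria1, whose subunit is inserted at synapses during long-term potentiation, had 129 and 95 reads, or 120 and 126 RPM (123 ± 4.09). That placed it second in both libraries, at 22.0% and 22.2% of the family, with 95% Poisson intervals of 100.4 to 143 RPM in replicate 1, apart from those of all other members, and 102 to 154 RPM in replicate 2, which just met that of Gria4. Gria2's intervals ran from 255 to 320 and from 261 to 340 RPM.

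Gria3, the X-linked member, had 76 and 46 reads, or 70.9 and 61.0 RPM (66.0 ± 6.95). Gria4, a subunit known from interneurons and from early postnatal pyramidal cells, had 74 and 62 reads, or 69.0 and 82.3 RPM (75.6 ± 9.39). These neighbours in the order changed places between the libraries, and their intervals overlapped in each (55.8 to 88.7 for Gria3 and 54.2 to 86.6 for Gria4 in replicate 1, 44.7 to 81.4 and 63.1 to 105 in replicate 2), so their order could not be told. Per kilobase of the longest annotated transcript the means were 28.2 RPM for Gria2, 22.2 for Gria1, 13.9 for Gria4 and 12.7 for Gria3. That order was the same as without length, but it rests on annotated lengths and not on those of the reads. For Gria4 the annotated length was 5441 bases. Of its reads, 91.9% in replicate 1 and 87.1% in replicate 2 ended before the exon that follows flip and flop. The order per kilobase of the reads themselves was not tested.

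**Figure D1:**
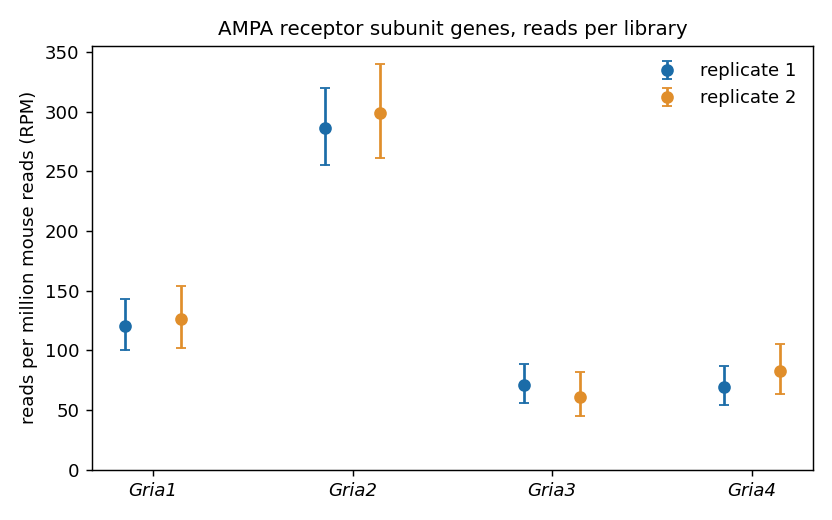
Level of each AMPA receptor subunit gene in RPM (vertical axis, linear from 0) in replicate 1 and replicate 2; points are library values and bars are exact 95% Poisson intervals. Gria2 stands at 286 and 299 RPM, above Gria1. The points of Gria3 and Gria4 lie between 61.0 and 82.3 RPM, and their bars overlap in each library.

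The libraries did not differ detectably in any member. The log2 ratio of replicate 1 over replicate 2 was -0.07 for Gria1, -0.06 for Gria2, 0.21 for Gria3 and -0.26 for Gria4. None of the 4 passed a two-sided exact binomial test with Benjamini-Hochberg adjustment over 11339 genes (the lowest adjusted p was 0.925, for Gria4, and 0 of 4 had an unadjusted p under 0.05), where 100 genes or 0.882% of those tested did. With 1 group no model of conditions could be made, so these p-values weigh the difference between the libraries against counting error alone.

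Gria3 transcripts held almost only flip, whereas Gria1 transcripts held both exons near parity and Gria2 transcripts held flip somewhat more often than flop in each library. Gria4 was seen with flop alone, in a handful of reads. In Gria1 43 reads held flip and 48 held flop in replicate 1, and 32 held flip and 32 held flop in replicate 2. The flip share of reads with exactly one of the exons was thus 47.3% (Wilson 95% interval 37.3 to 57.4) and 50.0% (38.1 to 61.9), with a mean of 48.6% ± 1.94 (SD, n = 2). In Gria2 146 reads held flip and 119 flop in replicate 1, and 123 held flip and 71 flop in replicate 2, which gave flip shares of 55.1% (49.1 to 61.0) and 63.4% (56.4 to 69.9) and a mean of 59.2% ± 5.87. The Gria1 and Gria2 intervals overlapped in both libraries, and the Gria2 interval of replicate 1 included 50.0%. The difference in flip share between Gria1 and Gria2 was not tested.

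In Gria3 53 reads held flip and 2 held flop in replicate 1, and 33 held flip and 2 held flop in replicate 2. Flip made up 96.4% (87.7 to 99.0) and 94.3% (81.4 to 98.4), 95.3% ± 1.47 on average, and these intervals lay wholly above those of Gria1 and Gria2 in both libraries. Gria4 had no flip read, against 2 and 4 flop reads. With so few reads the upper limit of its flip share was 84.2% in replicate 1 and 60.2% in replicate 2, or 45.9% over all 6 reads (exact Clopper-Pearson 95% interval), and no Gria4 share is read from them. All 4 genes together gave 242 flip and 171 flop reads in replicate 1 (58.6% flip) and 188 flip and 109 flop reads in replicate 2 (63.3%).

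**Figure D2:**
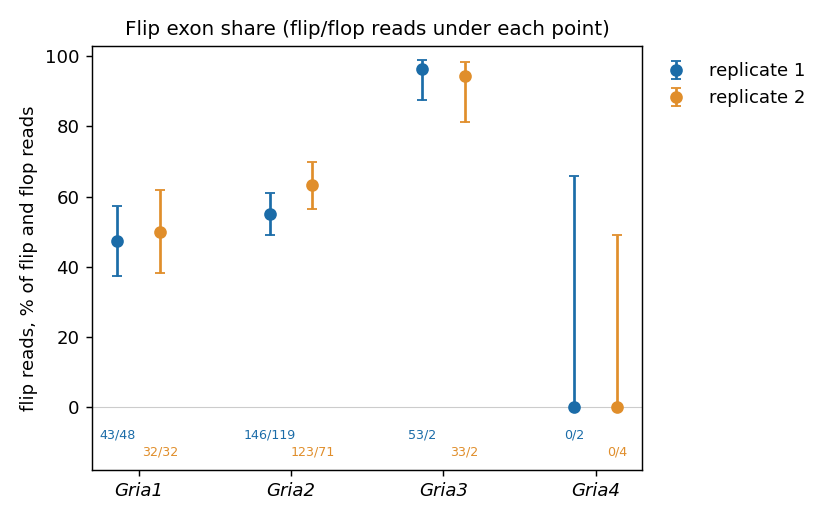
Flip reads as a percentage of flip and flop reads (vertical axis) for each gene in replicate 1 and replicate 2; bars are Wilson 95% intervals and the figures under the points are flip and flop reads. Gria3 lies at 96.4 and 94.3%, Gria2 at 55.1 and 63.4%, Gria1 at 47.3 and 50.0%, and the Gria4 bars span much of the axis because only 2 and 4 reads hold either exon.

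None of the 3 exon pairs with 20 or more reads in each library differed between the libraries after adjustment. The flip share of replicate 1 minus that of replicate 2 was -2.75 points in Gria1 (Newcombe 95% interval -18.2 to 12.9), -8.31 in Gria2 (-17.1 to 0.813) and 2.08 in Gria3 (-7.54 to 15.2). The two-sided Fisher's exact p was 0.747, 0.0843 and 0.641 in that order, with an adjusted p of 1 for each over 197 mutually exclusive exon pairs of 161 genes. Of those 197 pairs 0 were called (0%) and 5 had an unadjusted p under 0.05. Set against the same 197 pairs, whose rarer exon took a median of 0.641% of the reads pooled over the libraries, the rarer exon took 48.4% in Gria1, 41.4% in Gria2 and 4.44% in Gria3; 1 pair had a larger share than Gria1 and 8 had a larger share than Gria2.

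In Gria1 and Gria2 the most abundant splice chains were the annotated flip and flop transcripts, and in Gria3 the annotated flip transcript. In Gria1, Gria1-201 (flip) took 38 reads of replicate 1 and 26 of replicate 2, and Gria1-202 (flop) took 37 and 25, both with 16 exons. In Gria2, Gria2-202 (flip) had 104 and 86 reads and Gria2-201 (flop) had 88 and 46. The next Gria2 chains, with 9 and 10 reads for a flip form and 11 and 8 for a flop form, began at the annotated first exon and kept the last intron. In Gria3, Gria3-201 (flip) held 43 of 76 reads and 26 of 46, and no other chain reached 5 reads in either library. Annotated transcripts took 58.1% and 53.7% of the Gria1 reads, 67.1% and 63.6% of the Gria2 reads, 56.6% and 58.7% of the Gria3 reads and 59.5% and 54.8% of the Gria4 reads. They took 67.1% and 63.8% of all mouse reads, which include reads outside annotated genes. Of the reads of annotated genes alone, 719478 of 989834 in replicate 1 and 480951 of 675947 in replicate 2 lay on annotated transcripts.

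Gria4 stood apart in where its transcripts ended. Only 2 of 74 Gria4 reads in replicate 1 and 4 of 62 in replicate 2 crossed the flip and flop region, while 68 (91.9%, Wilson 95% interval 83.4 to 96.2) and 54 (87.1%, 76.6 to 93.3) began upstream and ended before the exon that follows the pair. In Gria1 such early-ending reads numbered 1 of 129 and 1 of 95. In Gria2 they numbered 18 of 307 (5.86%) and 18 of 225 (8.0%), and in Gria3 6 of 76 (7.89%) and 4 of 46 (8.70%). The Gria4 share exceeded that of each other member in both libraries with no overlap of intervals. Reads across the region made up 72.1% and 70.5% in Gria1, 89.6% and 88.0% in Gria2 and 73.7% and 76.1% in Gria3, and most of the remaining Gria1 reads, 34 and 27, were 3′ pieces that began downstream of the exon before the pair.

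**Figure D3:**
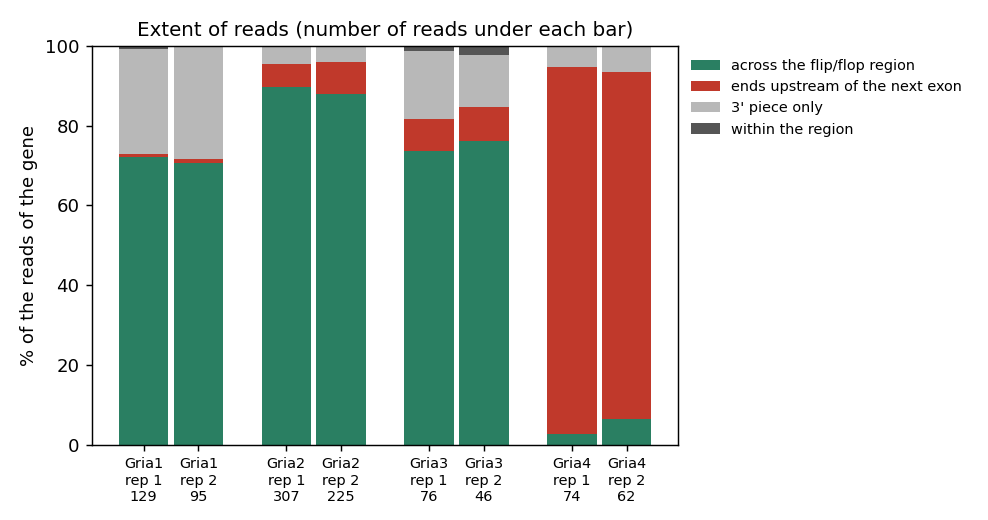
Share of each gene's reads (vertical axis, percent, bars from 0) that cross the flip and flop region, end upstream of the exon after it, hold a 3′ piece only, or lie within the region, in each library, with the number of reads under each bar. Early-ending reads fill 91.9 and 87.1% of the Gria4 bars and at most 8.70% of the others.

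Most of the early-ending Gria4 reads stopped at a single place, the annotated end of the transcript Gria4-203. At chr9:4477401-4478263, where the 3′ ends of models within 1000 bases of each other were joined, 64 reads (86.5% of the gene) ended in replicate 1 and 49 (79.0%) in replicate 2. Of these, 60 and 43 began with the first exon of an annotated Gria4 transcript. The splice chain of Gria4-203 itself was the most abundant Gria4 chain, with 43 and 34 reads. It has 11 exons, of which the 9 inner ones are also in Gria4-202, and a last exon of its own of 590 bases at chr9:4478263-4478852. The annotation gives Gria4-203 a coding sequence of 1299 bases, 433 codons, which is 48.0% of the 902 codons of Gria4-202 and stops ahead of the exons for the membrane-spanning segments. Splicing into that last exon was seen in 51 and 40 of the reads ending there, while 10 and 7 ran from the tenth exon straight into the intron, and 3 and 2 had another structure.

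Of the Gria4 reads that began at the first exon shared by Gria4-201, Gria4-202 and Gria4-203, 58 in replicate 1 and 44 in replicate 2, 1 in each library reached past flip and flop. A further 7 and 3 reads began at the first exon of Gria4-204, and 0 of them did. In Gria1 78 of 78 and 56 of 57 reads from the first exon of Gria1-201 and Gria1-202 crossed the region, in Gria2 246 of 264 and 179 of 195, and in Gria3 46 of 50 and 28 of 31. By reads that hold flip or flop, the levels were 252 ± 7.31 RPM for Gria2, 84.9 ± 0.0522 for Gria1, 48.9 ± 3.42 for Gria3 and 3.59 ± 2.43 for Gria4 (SD, n = 2), which put Gria4 last. The lack of reads limits what can be said: 0 Gria4 flip reads allow a level of up to 2.80 RPM in replicate 1 and 3.98 RPM in replicate 2.

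Few other genes of the cortex ended so early. Over 5963 genes with 20 or more reads in each library and an annotated stop codon, the median share of reads that ended before the stop codon of the longest coding transcript was 0% in each library, and the upper quartile of the mean was 2.71%. For Gria4 the share was 91.9% and 87.1%, and 68 of the 5963 genes had a higher mean. The other members stood at 9.21% and 10.9% for Gria3, 5.86% and 8.0% for Gria2 and 2.33% and 1.05% for Gria1. Reads that covered the whole coding sequence made up 1.35% and 1.61% in Gria4, 64.5% and 60.9% in Gria3, 80.5% and 79.6% in Gria2 and 62.8% and 60% in Gria1, beside a median of 87.9% and 86.4% over these genes.

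**Figure D4:**
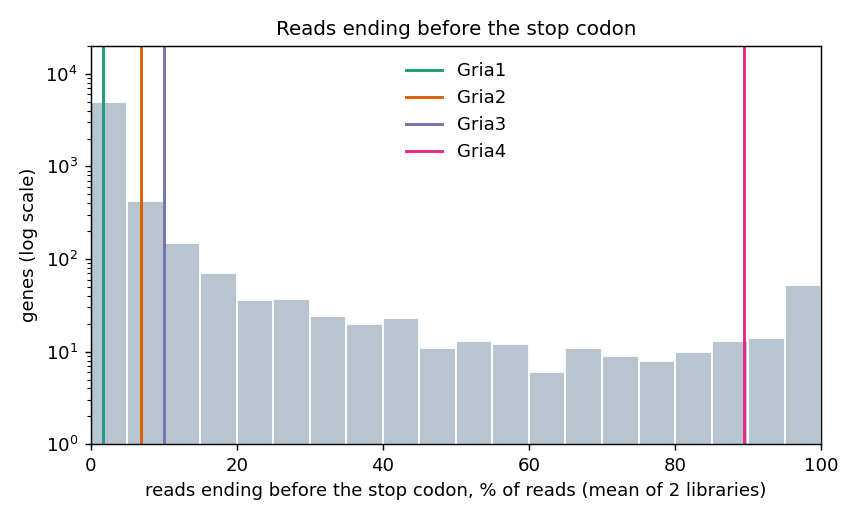
Number of genes (vertical axis, log scale) by the share of reads ending before the stop codon of the longest coding transcript (horizontal axis, percent, mean of both libraries), with a line for each AMPA receptor subunit gene. Gria4 lies near the upper end of the axis, with 68 of 5963 genes above it, while the other members lie at or below 10.9% in each library.

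The exon after the pair carries the start of the cytoplasmic tail, whose length differs between subunits and, in Gria2, between alternative transcripts. The short tails of the Gria2 and Gria3 proteins bind PDZ domains of Grip1 and Pick1, and that of Gria1 is long. In Gria1 the exon had 135 bases in 93 of 93 and 67 of 67 reads across the region. In Gria2 the 249-base form of the exon, which holds the stop codon of the short tail, was spliced in 229 of 275 reads (83.3%, Wilson 95% interval 78.4 to 87.2) in replicate 1 and 161 of 198 (81.3%, 75.3 to 86.1) in replicate 2. The 135-base form, which reads on into a longer tail, was used in 15 (5.45%, 3.33 to 8.80) and 16 (8.08%, 5.04 to 12.7). The rest mostly kept the last intron, 29 reads (10.5%) and 21 (10.6%). The coding bases that set the short tail apart lie at chr3:80689106-80689216 on the minus strand of mm10, printed 5′ to 3′ from the GENCODE M21 transcripts with the stop codon in capitals.
Gria2 short tail: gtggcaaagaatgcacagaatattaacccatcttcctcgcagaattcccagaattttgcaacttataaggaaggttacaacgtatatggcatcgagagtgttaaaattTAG
These 111 bases are present in the 249-base exon and absent from the 135-base one. Reads that kept the last intron run through these bases too, with the same stop codon. The share of the 249-base exon is therefore not the whole share of reads with the short-tail stop codon.

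Flip and flop both occurred with the 249-base exon, with the 135-base exon and with the retained last intron of Gria2. Reads with the 249-base exon held flip in 125 and flop in 98 in replicate 1 (56.1% flip) and in 104 and 53 in replicate 2 (66.2%). Reads with the 135-base exon held 7 flip and 7 flop in replicate 1 (50.0%, 26.8 to 73.2) and 8 flip and 8 flop in replicate 2 (50.0%, 28.0 to 72.0). Reads with the last intron retained held 14 flip and 13 flop (51.9%) and 11 flip and 10 flop (52.4%). The intervals overlapped throughout. A difference in flip use between the 249-base exon, the 135-base exon and the retained intron was not tested. In Gria3 the exon had 248 bases in 54 of 56 and 35 of 35 reads. Among the few Gria4 reads across the region it had 135 bases in 1 and 3 and 248 bases in 1 and 1.

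Genes for proteins that work with AMPA receptors were expressed over a wide range. Of 53 genes in 5 lists, 52 had a read, 48 had the 10 reads needed for the test and 0 of these 48 differed between the libraries by the exact binomial test after adjustment, beside 0.882% of all genes tested; 3 of the 48 had an unadjusted p under 0.05, beside 8.6% of all genes tested. The auxiliary subunits, which control trafficking and gating, had a median of 57.3 RPM over 18 genes and a median log2 ratio of -0.05, against 30.9 RPM and 0.00 over all genes tested. They were led by the cornichon Cnih2 at 865 ± 29.2 RPM (844 and 885), the transmembrane regulatory protein gene Cacng3 at 202 ± 1.80 (200.5 and 203) and Cpt1c, a neuronal protein that takes part in receptor trafficking, at 166 ± 11.5 (158 and 174). Of the same family as Cacng3, Cacng2 stood at 70.9 ± 6.49 RPM and Cacng8 had 2 reads in replicate 1 and 0 in replicate 2; both are named after their values were seen.

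The 8 scaffold and trafficking genes had a median of 112 RPM and a median log2 ratio of 0.06. Nsf, the ATPase that binds the Gria2 tail, led them with 658 ± 25.8 RPM (676 and 640), followed by Epb41l1, a link to the actin cytoskeleton, with 129 ± 17.0 (117 and 141) and Dlg3, a membrane-associated guanylate kinase, with 128 ± 1.35 (127 and 129). The 10 extracellular organisers had a median of 69.1 RPM and a median log2 ratio of 0.06. Olfm1, a secreted protein found in AMPA receptor complexes, reached 1410 ± 49.2 RPM (1444 and 1375), the pentraxin receptor Nptxr 312 ± 11.9 (321 and 304) and Olfm2 286 ± 8.39 (292 and 280). The 3 RNA editing enzymes had a median of 39.5 RPM and a median log2 ratio of -0.24. Adar had 52.8 ± 6.06 RPM (48.5 and 57.1), Adarb1, which edits the pore site of Gria2 transcripts, 39.5 ± 12.7 (48.5 and 30.5) and Adarb2, which has no known editing activity, 10.4 ± 4.11 (7.46 and 13.3).

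The 14 other ionotropic glutamate receptor genes had a median of 16.3 RPM and a median log2 ratio of 0.10. Grin1, the obligatory NMDA receptor subunit, stood at 461 ± 34.2 RPM (485 and 437), above Gria2, the kainate receptor subunit Grik5 at 160 ± 17.8 (147 and 173) and Grin2c at 62.2 ± 2.18 (60.6 and 63.7). Grin3b had no read in either library, which allows up to 2.80 and 3.98 RPM.

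**Figure D5:**
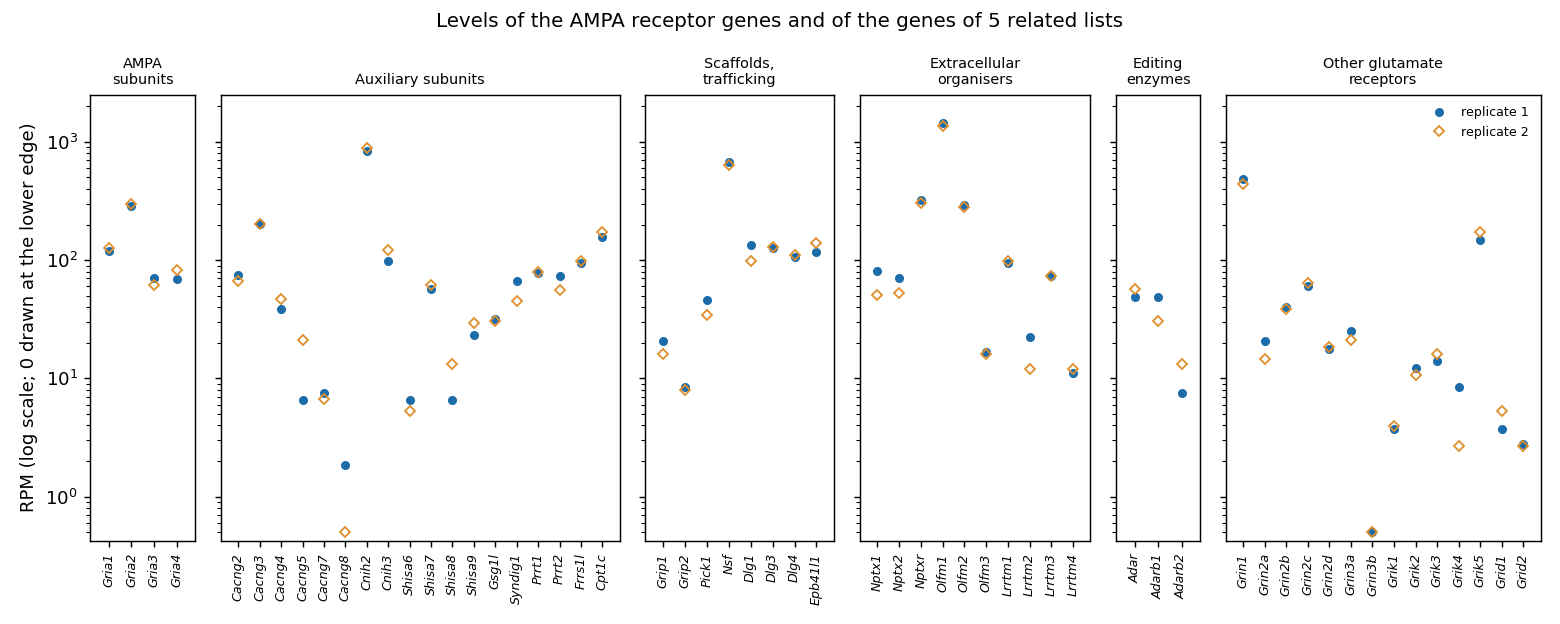
RPM (vertical axis, log scale) of the 4 AMPA receptor subunit genes and of the genes of the 5 lists in replicate 1 and replicate 2, with values of 0 drawn at the lower edge. Olfm1, Cnih2, Nsf, Grin1 and Nptxr stand above every subunit gene in both libraries, and the points of the libraries lie close together for genes with many reads.

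Markers of the cortex were present, and those of the cerebellar list were near 0 except Gdf10. All 5 excitatory neuron markers had reads, summing to 1535 RPM in replicate 1 and 1352 in replicate 2, with Slc17a7 at 1179 ± 92.3 RPM. The 6 inhibitory neuron markers summed to 454 and 391 RPM, of which Gad1 gave 273 and 220, while Slc32a1 had only 2 reads and 1. The 4 astrocyte markers summed to 2534 and 2652 RPM, the 2 oligodendrocyte precursor markers to 57.8 and 53.1 and the 3 microglial markers to 204 and 222. Of these markers 0 were called, but Slc32a1 and the microglial Cx3cr1, with 4 and 3 reads, had too few reads for the test. Of the cerebellar list, Pcp2 and Cbln3 had 0 reads, Gabra6 had 1 and 0, Gdf10 had 12 and 7, and the list summed to 12.1 and 9.29 RPM. The libraries did differ in myelin and choroid plexus markers: 3 of 4 myelin genes were higher in replicate 1 (4615 against 2634 RPM summed) by the exact binomial test (adjusted p 0.000227 or lower), and Ttr had 27 and 193 reads (adjusted p 4.1e-43) while Kl had 0. The part of these differences in the values of the AMPA receptor genes was not tested.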

How the data were processed

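For each library the authors deposited whole-number counts of reads on every transcript model seen, and the exons of these models as 1-based mm10 coordinates. The models come from TALON and use GENCODE M21, per the file headers; which aligner, instrument and versions were used is not given in the sources used here. ERCC spike-ins took 1.37% of 1087280 reads of replicate 1 and 1.16% of 762376 of replicate 2, and they were left out of all totals.

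Reads were summed per gene. The libraries were compared at each gene that reached 10 reads over both, by an exact binomial test (two-sided) on the library totals, with a pseudocount of 0.5 reads in log2 ratios. A read was called flip or flop when its model held an internal exon with exactly those coordinates and not the other. Flip and flop were told apart in the annotation by a short stretch of the peptide they encode, with both read in the same frame. Pairs of annotated exons that share an upstream donor and a downstream acceptor, with 20 or more reads in each library, were compared by Fisher's exact test. P-values were Benjamini-Hochberg adjusted over all features, with a threshold of 0.05. Python 3.11.15, SciPy 1.17.1 and statsmodels 0.14.6 were used, with edgeR 4.0.16 (TMM) and DESeq2 1.42.0 size factors as alternative scalings only, since 1 group leaves no contrast.

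The members, the gene lists and the marker lists were chosen with earlier results of these data known. Named were all members, up to 3 genes with most reads of each list, any called gene, genes without a read, and up to 3 models with most reads of each member. Each table gives a read to 1 gene, so overlapping genes and near-identical copies are uncertain. No correction for duplicate reads was made, and intervals and floors cover counting error alone.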

Additional observations from a re-analysis of the deposited data

Results flagged for a closer look

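Reads on the opposite strand of the subunit genes, which no comparison uses, exceeded the limit that a count of 0 allows (3 reads) at 3 of the 4 genes. The span of Gria2 held 17 antisense reads in replicate 1 and 14 in replicate 2, that of Gria3 held 6 and 8, and that of Gria4 held 16 and 25, while Gria1 had 1 and 0. For Gria4 this came to 21.6 and 40.3 antisense reads per 100 sense reads, for Gria3 to 7.89 and 17.4 and for Gria2 to 5.54 and 6.22. Over the 4 genes together antisense reads were 6.39% and 9.89% of sense and antisense reads, beside 6.69% and 9.15% of mouse reads that the deposited tables class as antisense. Of 20 separate places, 9 had reads in both libraries, 3 in Gria2, 1 in Gria3 and 5 in Gria4; the places with most reads over both were chr3:80795093-80797987 in Gria2 with 10 and 5 reads and chr9:4787987-4789878 in Gria4 with 2 and 12.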

How the results depend on the processing

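The order Gria2, Gria1, Gria4, Gria3 held for mean RPM over annotated transcripts only (191, 68.8, 43.1 and 38.0), without Genomic models (280 for Gria2 and 107 for Gria1), scaled to reads on annotated transcripts (447, 188, 115.9 and 100.6) and without single-exon models (280 for Gria2, 90.5 for Gria1 and 57.2 for Gria3), the last an alternative chosen after seeing the data. By reads with flip or flop, also chosen after seeing the data, 2 of 4 members kept their place. Leaving out each library in turn gave 120 to 126 RPM for Gria1, 286 to 299 for Gria2, 61.0 to 70.9 for Gria3 and 69.0 to 82.3 for Gria4, and annotated shares of 53.7 to 58.1%, 63.6 to 67.1%, 56.6 to 58.7% and 54.8 to 59.5%. The order did not hold without replicate 2, where Gria3 (70.9) stood above Gria4 (69.0).

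No member was called under any alternative. Of all genes, 35 were called over annotated transcripts only and 176 without Genomic models, against 100 with all classes. Without Genomic models 2 list genes, Dlg4 (111 and 36 reads) and Epb41l1 (65 and 106), were called. With all classes Dlg4 had 114 and 83 reads and Epb41l1 125 and 106, and neither was called. The Genomic reads left out lay mostly in replicate 2 for Dlg4 and only in replicate 1 for Epb41l1. Single-exon reads of the Gria1 last exon were classed Genomic in replicate 1 (32) and as incomplete splice matches in replicate 2 (26), so leaving Genomic models out moved the Gria1 log2 ratio to -0.51.

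The flip share became 50.8% in Gria1 and 100% in Gria3 over annotated transcripts only, and 38.7% and 80.6% over other models only. In Gria3 the only annotated transcript with reads across the pair was the flip form Gria3-201, with 43 and 26 reads. All Gria3 flop reads therefore fell among the other models, and this split says nothing about its flip use. For Gria4 no value could be had on annotated transcripts in both libraries. Leaving out each library gave 47.3 to 50.0% in Gria1, 55.1 to 63.4% in Gria2 and 94.3 to 96.4% in Gria3; for Gria4, with 2 and 4 reads, all flop, it says nothing. The early-ending share of Gria4 was 94.9% without single-exon models, also chosen after seeing the data. No paired analysis was possible because the series has only 1 group. Gria4 flip use rests on 6 reads in all, since few Gria4 reads crossed the pair.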

Other observations

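A few reads held neither a plain flip nor a plain flop form. In Gria2 5 reads in replicate 1 and 1 in replicate 2 held both exons, as did 1 and 0 in Gria3, and no read joined the flanking exons directly. In Gria2 4 and 3 further reads held flop with the preceding intron retained, and 1 read in replicate 1 lacked flip, flop and the next exon. In Gria1 1 and 3 reads held a flop exon that ran on for 10 bases, and 1 read in replicate 1 held a flip exon that began 2 bases late.

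Early ends of Gria2 fell mostly at transcripts annotated as retained-intron forms: 5 and 5 reads ended with Gria2-206, 6 and 5 with Gria2-204 and 3 and 4 with Gria2-207, and 2 and 4, in models outside the annotation, ended at base 80777696 of chromosome 3. In Gria3 4 and 2 reads ended between 41654318 and 41654810 on chromosome X, in the intron before the flop exon or at its first base. In Gria4 3 and 3 reads ended at chr9:4661622-4662309, after at most 4 exons.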
